A study of Homo sapiens with 9 samples.

Results

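Cells display fragments of their own proteins on MHC class I molecules, and 10 genes of that machinery are described here among the 19934 genes tested on these arrays. The list holds the class I chains HLA-E and HLA-F, the light chain B2M, the peptide transporter subunits TAP1 and TAP2, the loading factor TAPBP, the immunoproteasome subunits PSMB8, PSMB9 and PSMB10, and the transcriptional activator NLRC5. Its members are listed by name, by a rule that uses no measured value, though earlier results of these data were known when they were listed. All 10 had 1 probe set each, and none was removed by a filter. The arrays measured total RNA of WM793TR, a mutant BRAF melanoma line in which doxycycline switches on an introduced construct. Cells labelled TWIST1 overexpression carried the TWIST1 shRNA together with a TWIST1 cDNA and are called shTWIST1 + TWIST1. Cells labelled TWIST1 knockdown carried the TWIST1 shRNA alone (shTWIST1), and cells labelled TWIST1 basal carried a control shRNA (shControl). There were 3 arrays per group and 9 in all, and all groups received 100 ng/mL doxycycline for 96 h, the control included. The comparison of these groups asks which transcripts follow TWIST1, a transcription factor of mesenchymal programs that is tied to invasion. The labels do not say whether replicates were separate cultures, so p-values measure only the spread between these arrays. All groups come from 1 cell line, and the 3 comparisons share arrays.

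Class I presentation begins at the proteasome, which cuts cellular proteins into peptides. Interferon-gamma replaces the catalytic subunits of the standard particle by PSMB8, PSMB9 and PSMB10, which changes the peptides that are made. TAP1 and TAP2 form a pump that moves peptides into the endoplasmic reticulum, and TAPBP (tapasin) bridges this pump to empty class I molecules. A class I molecule pairs an HLA heavy chain with B2M, and without B2M or peptide it does not stay at the cell surface. HLA-E presents leader peptides of other class I chains to natural killer cell receptors, and HLA-F also binds such receptors. NLRC5 is the class I counterpart of CIITA and acts at the promoters of several of these genes. Melanomas often lower parts of this pathway, which hides them from cytotoxic T cells.

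Promoter sequences of 8 members were found in a RefSeq table (GRCh38.p14), with 10 start sites among them. HLA-E and NLRC5 are named only. The 4 windows shown are those of HLA-F and PSMB9, which changed, of TAP1, the closest neighbor of PSMB9, and of B2M, the chain common to every class I molecule. Each holds the 250 bases before a start site, 5′ to 3′ on the strand of the gene. Capitals mark matches to an interferon-stimulated response element (ISRE, GAAANNGAAA or TTTCNNTTTC), an interferon-gamma activated site (GAS, TTCNNNGAA), a CCAAT box (CCAAT or ATTGG) and a kappa-B site. Both strands were searched, and in these 4 windows no match overlapped one of another kind. The windows lie at chr6:29723184-29723433 on the plus strand for HLA-F (gene 3134), at chr15:44711267-44711516 on the plus strand for B2M (gene 567), at chr6:32853705-32853954 on the minus strand for TAP1 (gene 6890) and at chr6:32853942-32854191 on the plus strand for PSMB9 (gene 5698).
HLA-F: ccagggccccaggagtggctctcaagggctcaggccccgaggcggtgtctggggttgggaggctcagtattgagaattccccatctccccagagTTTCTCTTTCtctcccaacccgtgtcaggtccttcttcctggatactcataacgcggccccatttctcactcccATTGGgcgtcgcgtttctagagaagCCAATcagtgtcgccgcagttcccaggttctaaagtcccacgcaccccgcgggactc
B2M: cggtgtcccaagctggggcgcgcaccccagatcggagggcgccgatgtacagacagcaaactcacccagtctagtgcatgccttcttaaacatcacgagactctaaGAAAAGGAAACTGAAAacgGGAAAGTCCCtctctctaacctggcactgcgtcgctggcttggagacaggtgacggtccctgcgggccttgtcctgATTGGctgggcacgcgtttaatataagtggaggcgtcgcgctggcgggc
TAP1: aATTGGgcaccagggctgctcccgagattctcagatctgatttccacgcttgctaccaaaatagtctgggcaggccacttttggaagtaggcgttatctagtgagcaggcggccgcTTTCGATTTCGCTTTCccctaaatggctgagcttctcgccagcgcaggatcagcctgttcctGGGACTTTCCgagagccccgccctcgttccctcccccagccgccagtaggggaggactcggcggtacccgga
PSMB9: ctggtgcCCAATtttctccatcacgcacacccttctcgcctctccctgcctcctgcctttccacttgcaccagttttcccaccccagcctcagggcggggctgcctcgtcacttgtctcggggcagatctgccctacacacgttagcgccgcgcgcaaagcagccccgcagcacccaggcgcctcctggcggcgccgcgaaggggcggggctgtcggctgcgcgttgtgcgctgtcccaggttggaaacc

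An ISRE stood in 6 of the 8 members with a sequence, against 3.02% of all 35116 promoters of the same length. The 6 were HLA-F, B2M, TAP1, TAP2, TAPBP and PSMB10. In B2M, TAP1 and TAPBP the matches came as an overlapping pair, seen in the B2M and TAP1 windows as a single longer stretch of capitals. A GAS stood in 2 members (TAP1, at its other start site, and PSMB8), against 6.57% of all promoters, and a kappa-B site in 3 (B2M, TAP1 and TAPBP), against 9.96%. A CCAAT box stood in 4 members, HLA-F, B2M, TAP1 and PSMB9, against 32.0% of promoters. The PSMB9 window held neither an ISRE, a GAS nor a kappa-B match. E-boxes (CANNTG), the motif that TWIST1 binds, stood in 4 members, against 61.8% of promoters, and are not in capitals. These were B2M, PSMB8, PSMB9 and PSMB10, and PSMB9 held 2. A match describes letters and does not show that a factor binds there. TAP1 and PSMB9 point away from each other, with 488 bases between the start sites. Their windows share 13 bases. The CCAAT box at the start of the TAP1 sequence and that of PSMB9 are thus the same site read on opposite strands. The ISRE pair (134 and 128 bases before the start shown) and kappa-B site (72) of TAP1 also lie between these start sites. They fall outside the PSMB9 window, so its lack of ISRE and kappa-B matches depends on the window length.

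TWIST1 was measured at 8.75, 8.90 and 8.27 log2 units in shTWIST1 + TWIST1 cells, at 6.18, 6.22 and 6.28 in shTWIST1 cells and at 6.77, 7.10 and 7.15 in shControl cells. The 3 groups did not overlap. TWIST1 was higher by 1.63 in shTWIST1 + TWIST1 than in shControl cells (adjusted p = 0.00199), while the difference of -0.78 between shTWIST1 and shControl cells missed the threshold (adjusted p = 0.293, limma). Array medians lay between 4.73 and 4.79, and whole arrays correlated at 0.975 to 0.994. The melanocyte factor SOX10 lay between 8.07 and 9.05 on all arrays, whereas the pigment genes PMEL, MLANA and TYR stayed under 3 in every group, so the lineage markers were present in part. Of 10 leukocyte markers, 9 were below the median of all genes in each group. In bulk RNA such as this, fewer cells of a kind and less RNA per cell cannot be told apart. PTPRC (CD45) averaged 2.13, 2.10 and 2.08 in shTWIST1 + TWIST1, shTWIST1 and shControl cells.

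Against shControl cells, shTWIST1 + TWIST1 cells had lower PSMB9 and lower HLA-F, and these were the only members past the threshold. All 10 members had a negative log2 fold change, from -1.05 for PSMB9 to -0.07 for TAP2. Thus 2 of 10 were called lower, where 1.55% of all genes were, and 0 were called higher, where 1.08% were (limma, adjusted p under 0.05 over 19934 genes). The members' median was -0.41 against 0.02 for all genes, of which 43.6% were negative. In 6 members every shTWIST1 + TWIST1 array was below every shControl array, which held for 8.15% of all genes. These were HLA-E, HLA-F, PSMB8, PSMB9, PSMB10 and NLRC5. B2M, TAP1, TAP2 and TAPBP overlapped between the groups. At an unadjusted p under 0.05 the count was 5, where 14.2% of all genes passed.

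**Figure D1:**
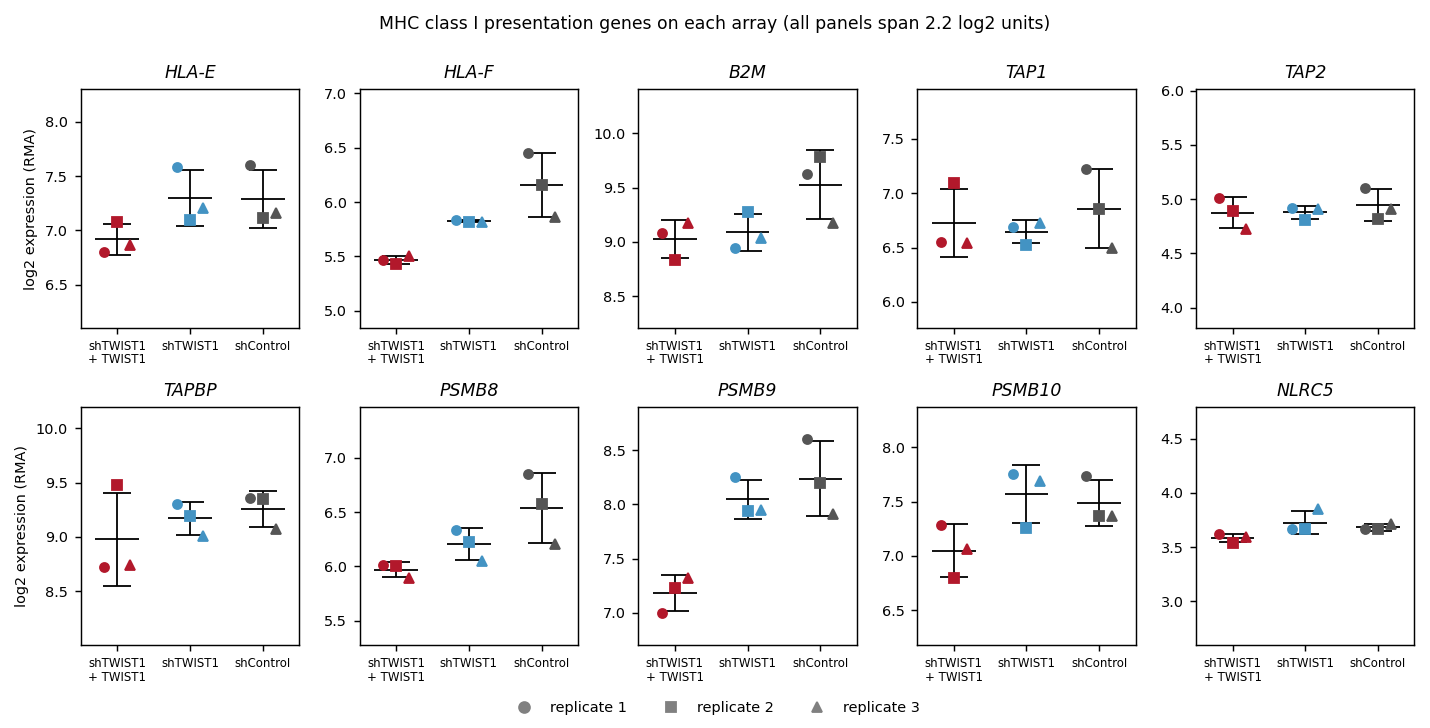
Log2 expression (RMA) of the 10 genes on each of the 9 arrays, by group. Marker shapes give the replicate, horizontal lines the group mean and error bars the SD (n = 3), and each panel spans the same range. PSMB9 and HLA-F of shTWIST1 + TWIST1 cells sit below all other arrays, as do HLA-E, PSMB8 and NLRC5 more narrowly. TAP1, TAP2, TAPBP and B2M overlap with shControl cells.

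Of the class I chains, HLA-F was measured at 5.47, 5.43 and 5.50 in shTWIST1 + TWIST1 cells, at 5.83, 5.82 and 5.82 in shTWIST1 cells and at 6.45, 6.16 and 5.86 in shControl cells. All 3 groups were apart, and the arrays within each shRNA line lay close together (SD 0.034 with and 0.0095 without the TWIST1 cDNA) while the shControl arrays were spread (SD 0.295). HLA-F fell in shTWIST1 + TWIST1 against shControl cells (log2 fold change -0.69, SE 0.13, adjusted p = 0.0336), down to 0.620 of what shControl cells had. The difference from shTWIST1 cells was -0.35 (adjusted p = 0.213). The call rested on each of several arrays. It was lost without any 1 of 8 arrays, with adjusted p between 0.0511 (without shTWIST1 replicate 2) and 0.103 (without shControl replicate 2), and it held only when shControl replicate 3 was left out (0.0108).

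HLA-E was measured at 6.80, 7.08 and 6.86 in shTWIST1 + TWIST1 cells, at 7.59, 7.10 and 7.20 in shTWIST1 cells and at 7.60, 7.11 and 7.16 in shControl cells. The highest shTWIST1 + TWIST1 array came close to the lowest of both other groups without passing it. The differences were -0.37 against shControl (adjusted p = 0.364) and -0.38 against shTWIST1 cells (adjusted p = 0.296). HLA-E had nearly the same mean in shTWIST1 and shControl cells, 7.30 and 7.29.

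The common light chain B2M was measured at 9.08, 8.83 and 9.17 in shTWIST1 + TWIST1 cells, at 8.94, 9.28 and 9.04 in shTWIST1 cells and at 9.62, 9.79 and 9.17 in shControl cells. The lines with the TWIST1 shRNA overlapped, and shControl replicates 1 and 2 were above them while replicate 3 was not. The difference from shControl was -0.50 with the TWIST1 cDNA (adjusted p = 0.215) and -0.44 without it (adjusted p = 0.682). Between both shRNA lines it was -0.06 (95% interval -0.45 to 0.33).

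Among the immunoproteasome subunits, PSMB9 (LMP2) moved most. It was measured at 7.00, 7.23 and 7.32 in shTWIST1 + TWIST1 cells, at 8.25, 7.94 and 7.95 in shTWIST1 cells and at 8.60, 8.20 and 7.91 in shControl cells. The shTWIST1 + TWIST1 arrays lay more than 0.5 below every other array, and the other groups overlapped. PSMB9 fell against shControl cells (log2 fold change -1.05, SE 0.18, adjusted p = 0.0214) to 0.481 of their level. It also fell against shTWIST1 cells (-0.86, SE 0.18, adjusted p = 0.0389) to 0.549 of theirs. PSMB9 was the only member called by the F-test over the 3 groups (adjusted p = 0.0322), which called 2.85% of all genes. The call against shControl was lost without shTWIST1 + TWIST1 replicate 1 (adjusted p = 0.0734) and without shControl replicate 2 (0.066). The call against shTWIST1 held without shControl replicate 1 or 3 and was lost without any other array, with adjusted p between 0.0637 (without shTWIST1 replicate 2) and 0.132 (without shTWIST1 replicate 1).

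PSMB8 (LMP7) was measured at 6.01, 6.01 and 5.90 in shTWIST1 + TWIST1 cells, at 6.34, 6.23 and 6.05 in shTWIST1 cells and at 6.85, 6.57 and 6.21 in shControl cells. The shTWIST1 + TWIST1 arrays were the lowest, though by under 0.1 from the nearest shTWIST1 array. The differences were -0.57 against shControl (SE 0.15, adjusted p = 0.118) and -0.23 against shTWIST1 cells (adjusted p = 0.488). PSMB8 became a further call against shControl, which made 3 members, without shControl replicate 3 (adjusted p = 0.0375, with 0.928% of all genes called lower) and with the replicate block (adjusted p = 0.036, with 2.44%). Same-numbered arrays of shTWIST1 + TWIST1 and shControl cells were not taken as paired.

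PSMB10 (MECL-1) was measured at 7.29, 6.80 and 7.06 in shTWIST1 + TWIST1 cells, at 7.75, 7.26 and 7.69 in shTWIST1 cells and at 7.74, 7.37 and 7.37 in shControl cells. Its arrays were below those of shControl, and replicate 2 of shTWIST1 reached down into their range. The differences were -0.44 against shControl (adjusted p = 0.306) and -0.52 against shTWIST1 cells (SE 0.18, adjusted p = 0.179). Same-numbered arrays of shTWIST1 + TWIST1 and shTWIST1 cells deviated together, and with the replicate block PSMB10 was called lower (adjusted p = 0.0296). PSMB10 is on chromosome 16, away from the MHC on chromosome 6 that holds PSMB8 and PSMB9.

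The transport genes did not pass the threshold in any comparison. TAP1 was measured at 6.55, 7.09 and 6.54 in shTWIST1 + TWIST1 cells, at 6.69, 6.52 and 6.73 in shTWIST1 cells and at 7.22, 6.85 and 6.49 in shControl cells. The groups overlapped fully, and within shTWIST1 + TWIST1 and shControl cells the spread was as wide as between groups. The TAP1 difference against shControl was -0.13 (95% interval -0.60 to 0.34). TAP2 was measured at 5.01, 4.89 and 4.72 in shTWIST1 + TWIST1 cells, at 4.92, 4.81 and 4.91 in shTWIST1 cells and at 5.10, 4.82 and 4.91 in shControl cells. All its arrays lay within 0.4 of each other, and the difference against shControl was -0.07 (95% interval -0.30 to 0.16).

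TAPBP was measured at 8.73, 9.47 and 8.74 in shTWIST1 + TWIST1 cells, at 9.31, 9.19 and 9.01 in shTWIST1 cells and at 9.36, 9.35 and 9.07 in shControl cells. Replicates 1 and 3 of shTWIST1 + TWIST1 were below all other arrays, and replicate 2 was above all of them. The difference was -0.28 against shControl (95% interval -0.74 to 0.18) and -0.19 against shTWIST1 cells. Within shTWIST1 + TWIST1 cells TAP1 was highest on replicate 2 too, though below shControl replicate 1.

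The activator NLRC5 was measured at 3.62, 3.54 and 3.59 in shTWIST1 + TWIST1 cells, at 3.67, 3.67 and 3.85 in shTWIST1 cells and at 3.67, 3.67 and 3.72 in shControl cells. Its signal was below the median of every array, and it took 6 distinct values over 9 arrays. The shTWIST1 + TWIST1 arrays were lowest, by differences of -0.10 against shControl (adjusted p = 0.609) and -0.14 against shTWIST1 cells (adjusted p = 0.365). On a probe set this dim, little of a change may be visible.

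Against shTWIST1 cells, 1 of 10 members was called lower in shTWIST1 + TWIST1 cells (PSMB9), where 1.77% of all genes were, and 0 higher, where 1.65% were. With the replicate block the count was 2, PSMB9 and PSMB10, where 2.81% of all genes were called lower. In 9 members the difference was negative, TAP1 being the exception at 0.08, and the median was -0.21 against 0.01 for all genes. In 5 members the arrays did not overlap, against 8.86% of all genes. These were HLA-E, HLA-F, PSMB8, PSMB9 and NLRC5, with every shTWIST1 + TWIST1 array the lower.

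The knockdown alone gave 0 calls of 10, where 0.0652% of all genes (13) were called in either direction by limma. Of those 13 calls, 7 were of genes on the Y chromosome, as were 7 of 523 and 11 of 682 calls in shTWIST1 + TWIST1 against shControl and against shTWIST1 cells. Their part in the members' values was not tested. At an unadjusted p under 0.05 there were 2 members, HLA-F and B2M, and 1320 genes in all (6.62%). Differences between shTWIST1 and shControl cells ran from -0.44 for B2M to 0.08 for PSMB10, with 7 of 10 negative and a median of -0.14. Only HLA-F did not overlap, which held lower for 6.18% of all genes, with the nearest arrays at 5.83 and 5.86. Without shControl replicate 3 the count of members without overlap was 5, where 9.95% of all genes lay lower in this way. That array was the lowest of its group in 7 of 10 members, so leaving it out favors this count. The share of all genes is no like measure, and no conclusion is drawn.

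**Figure D2:**
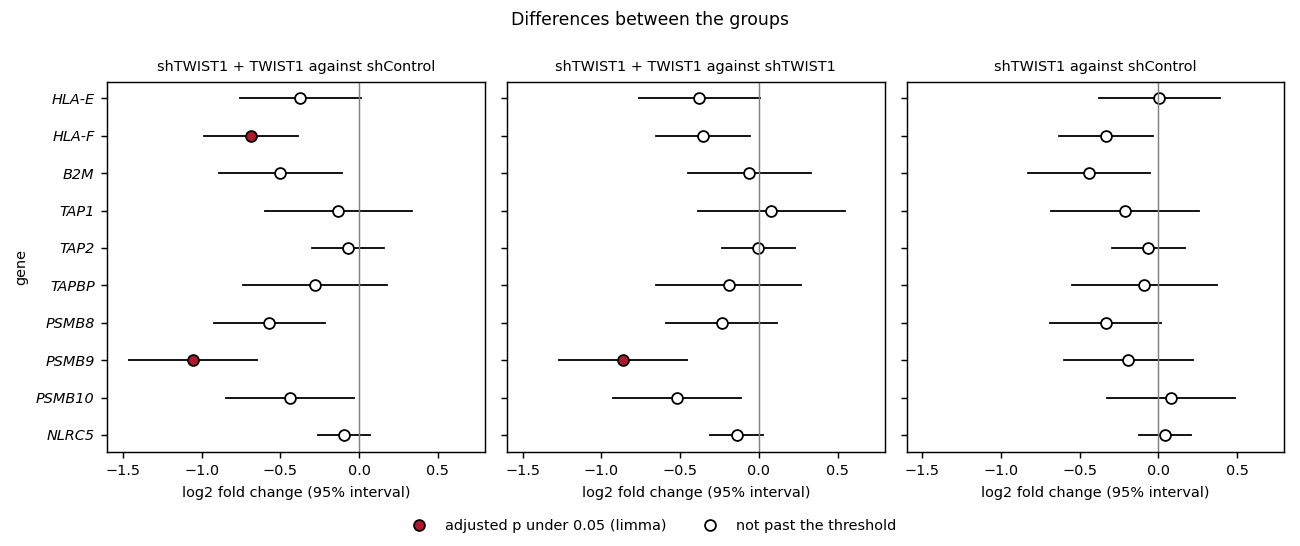
Log2 fold changes of the 10 genes with 95% intervals from limma in the 3 comparisons, each with the first-named group over the second. Filled points passed an adjusted p of 0.05 over all genes: PSMB9 at -1.05 and HLA-F at -0.69 against shControl, and PSMB9 at -0.86 against shTWIST1.

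Within shControl cells, and less so within shTWIST1 cells, most members varied together. Replicate 1 of shControl had the highest value of its group in 8 of 10 members and replicate 3 the lowest in 7, with mean deviations of 0.22, -0.01 and -0.21 over replicates 1, 2 and 3. The medians of all genes on these arrays deviated by under 0.01. In shTWIST1 cells replicate 1 was highest in 7 members, with mean deviations of 0.08, -0.06 and -0.02. The shTWIST1 + TWIST1 arrays showed no such order, with deviations between -0.04 and 0.06. Over the 45 pairs of members, the correlation of these within-group deviations over 9 arrays had a median of 0.407, a range of -0.629 to 0.882, and was positive in 34 pairs. The closest pairs were HLA-F with PSMB8 (0.882) and HLA-F with PSMB9 (0.833). NLRC5 had the lowest correlation, with TAPBP. These points share arrays, and no test was made of them. The correlation was not computed for pairs of other genes, so no share over all genes stands beside it.

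TAP1 and PSMB9 are neighbors that read in opposite directions, and their values are set side by side here. The difference PSMB9 minus TAP1 on the same array was 0.45, 0.14 and 0.78 in shTWIST1 + TWIST1 cells, 1.56, 1.42 and 1.22 in shTWIST1 cells and 1.38, 1.35 and 1.42 in shControl cells. It averaged 0.46 ± 0.32, 1.40 ± 0.17 and 1.38 ± 0.03 in these groups (SD, n = 3 each). In shControl cells both probe sets varied together between replicates, and in shTWIST1 + TWIST1 cells the difference was smaller on each array. This pair was picked after its values were seen, so it is given as a description with no test. Signal of different probe sets cannot be compared as a level, but the change in their difference can.

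Of the members, 7 lie on chromosome 6 in the MHC, where gene order allows a look at the surroundings. From HLA-F to TAPBP, 153 genes were tested. In shTWIST1 + TWIST1 against shControl cells, 11 of them were called lower and 1 higher, and the median was -0.04. Of all genes tested, 1.55% were called lower and 1.08% higher. Of the 21 genes here that are members or on the lists of other class I chains and class II genes, 9 were called lower. The class I genes among the 9 were HLA-F, HLA-B and PSMB9, and the rest were class II. Of the 132 other genes, which still hold HLA genes such as HLA-DQA2 and HLA-DQB2, 2 were called lower. Those 2 were HLA-H and HLA-DRB6, which are HLA pseudogenes, and the call upward was the cytokine TNF. The lists were written with earlier results known, so this split is a description only. The differences from shTWIST1 cells gave 7 of 21 and 4 of 132 lower, where the 4 were HLA-H, HLA-DRB6, FLOT1 and AGPAT1. The 2 called higher were TNF and POLR1H. Over all genes, 1.77% were lower and 1.65% higher there. From HLA-DOB (-0.10 against shControl) the order runs TAP2 (-0.07), PSMB8 (-0.57), TAP1 (-0.13), PSMB9 (-1.05), the pseudogene PPP1R2P1 (-0.05) and HLA-DMB (-2.09).

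**Figure D3:**
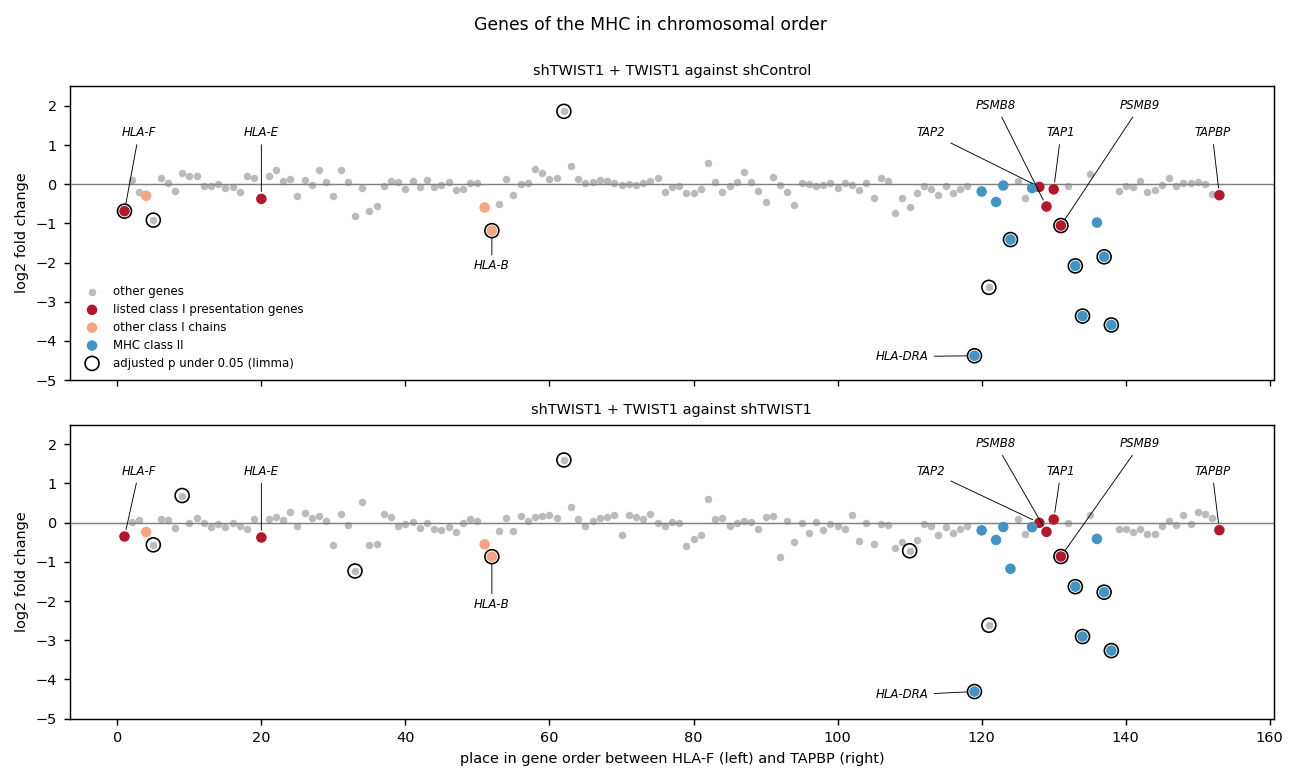
Log2 fold changes of the 153 genes tested between HLA-F and TAPBP, in chromosomal order, for shTWIST1 + TWIST1 against shControl (top) and against shTWIST1 (bottom). Circled genes passed an adjusted p of 0.05. PSMB9 (-1.05 and -0.86) stands beside TAP1 (-0.13 and 0.08), and class II genes reach -4.38 and -4.31 at HLA-DRA.

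Other class I chains gave 2 calls of 13 against shControl and 2 against shTWIST1 cells, all lower. Of all genes, 1.55% and 1.77% were called lower. HLA-B, a classical heavy chain, was measured at 8.29, 8.75 and 8.50 in shTWIST1 + TWIST1 cells, at 9.41, 9.46 and 9.28 in shTWIST1 cells and at 9.69, 9.98 and 9.43 in shControl cells. The shTWIST1 + TWIST1 arrays were the lowest by over 0.5, and HLA-B fell against shControl (-1.19, adjusted p = 0.00742) and against shTWIST1 cells (-0.87, adjusted p = 0.024). The second call was lost without shTWIST1 + TWIST1 replicate 1 or 3 or without any shTWIST1 array (adjusted p between 0.0602 and 0.0953). AZGP1, a secreted class I-like protein, fell by 2.87 against shControl (adjusted p = 0.00545). HLA-C missed the threshold with -0.60 (adjusted p = 0.0505). Class I heavy chains are alike in sequence, so probes of 1 gene may also bind others, and the probes themselves were not used here.

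In the list of peptide loading and trimming genes, 1 of 19 was called lower against shControl and 2 against shTWIST1 cells. Over all genes the shares called lower were 1.55% and 1.77%. TAPBPL, a tapasin relative that edits peptides, was measured at 4.07, 4.26 and 4.07 in shTWIST1 + TWIST1 cells, at 5.33, 4.92 and 5.01 in shTWIST1 cells and at 5.34, 5.34 and 5.06 in shControl cells. It fell by 1.12 against shControl (adjusted p = 0.00385) and by 0.95 against shTWIST1 cells (adjusted p = 0.00624), while its relative TAPBP was not called. ERAP2, which trims peptides in the endoplasmic reticulum, differed by -0.93 from both groups and was called against shTWIST1 (adjusted p = 0.0439) but not against shControl cells (0.0528). That call was lost without any 1 of 7 arrays, the exceptions being shControl replicates 1 and 3. The chaperones CALR, CANX and PDIA3 were not called (0.02, 0.01 and 0.22 against shControl).

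None of 21 further proteasome subunits and activators was called in any comparison. Calls were rare among all genes too: 1.55% lower and 1.08% higher in shTWIST1 + TWIST1 against shControl, and 1.77% and 1.65% against shTWIST1 cells. In shTWIST1 against shControl cells 0.0652% of all genes were called. The median of the 21 was -0.09 in shTWIST1 + TWIST1 against shControl, 0.17 against shTWIST1, and -0.28 in shTWIST1 against shControl cells. In that last comparison 11 of 21 lay without overlap below shControl, where 6.18% of all genes did. PSMB5, whose place PSMB8 takes in the immunoproteasome, was measured at 8.99, 8.79 and 9.26 in shTWIST1 + TWIST1 cells, at 8.72, 8.69 and 8.84 in shTWIST1 cells and at 9.14, 9.39 and 9.13 in shControl cells. The shTWIST1 arrays were below those of shControl, by -0.47 (adjusted p = 0.5). PSMB6, which PSMB9 replaces, differed by -0.09 in shTWIST1 + TWIST1 against shControl cells (adjusted p = 0.893), and PSMB7, which PSMB10 replaces, by -0.10 (adjusted p = 0.726).

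Regulators of class I transcription and interferon signaling gave 0 calls of 24 against shControl cells and 1 against shTWIST1 cells. Of all genes, 1.55% were lower and 1.08% higher against shControl, and 1.77% and 1.65% against shTWIST1 cells. IFNGR2, the signaling chain of the interferon-gamma receptor, was measured at 10.18, 10.56 and 10.02 in shTWIST1 + TWIST1 cells, at 9.40, 9.69 and 9.40 in shTWIST1 cells and at 9.56, 9.93 and 9.81 in shControl cells. It rose against shTWIST1 cells (0.76, adjusted p = 0.0408), a call lost without any 1 of 6 arrays (shTWIST1 + TWIST1 replicates 1 and 2, shTWIST1 replicates 1 and 3, shControl replicates 2 and 3). Against shControl the difference was 0.49 (adjusted p = 0.197). IRF1, a factor that drives class I and immunoproteasome genes after interferon, differed by -0.73 against shControl (adjusted p = 0.301) and by -0.96 against shTWIST1 cells (adjusted p = 0.134). RFX5, CREB1 and the NFY subunits, which bind class I and class II promoters, were not called.

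The interferon-induced genes moved both ways and mostly not past the threshold. Of 52, 1 was called higher and 1 lower against shControl cells, and 3 higher and 2 lower against shTWIST1 cells. Among all genes, 1.08% were higher and 1.55% lower against shControl, and 1.65% and 1.77% against shTWIST1 cells. The median of the 52 was -0.06 in each of the 3 comparisons. LGALS3BP, a secreted galectin partner, fell by 2.32 against shControl (adjusted p = 0.000496), whereas HERC5, the ligase of ISG15, rose by 1.62 (adjusted p = 0.00558). HERC5 was dim, with means of 4.18 in shTWIST1 + TWIST1 and 2.56 in shControl cells, both below every array median. Against shTWIST1 cells GBP1 was called lower (-1.76), and the RNA sensor RIGI (0.58) and TRIM21 (0.48) were called higher. Against shControl cells their differences were -1.69 (adjusted p = 0.0571), 0.20 (0.512) and 0.34 (0.166), and whether the comparisons differ was not tested. Of fits without 1 array, GBP1 was called only without shTWIST1 replicate 3, and RIGI and TRIM21 only without shControl replicate 3, the adjusted p of the others running from 0.0533 to 0.129. TRIM21 was also lost with the replicate block (adjusted p = 0.0618).

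MHC class II, by contrast, gave 8 calls of 13 against shControl and 7 against shTWIST1 cells, all lower. Of all genes, 1.55% and 1.77% were called lower. HLA-DRA fell by 4.38 and CD74, the invariant chain, by 2.37 against shControl, and CIITA, the class II counterpart of NLRC5, by 1.20 (adjusted p = 0.0122). The median of the 10 class I presentation genes was -0.41 against shControl cells, where that of the class II genes was -1.41. In shTWIST1 against shControl cells none of the 6 lists around the members held a called gene, where 0.0652% of all genes were called.

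**Figure D4:**
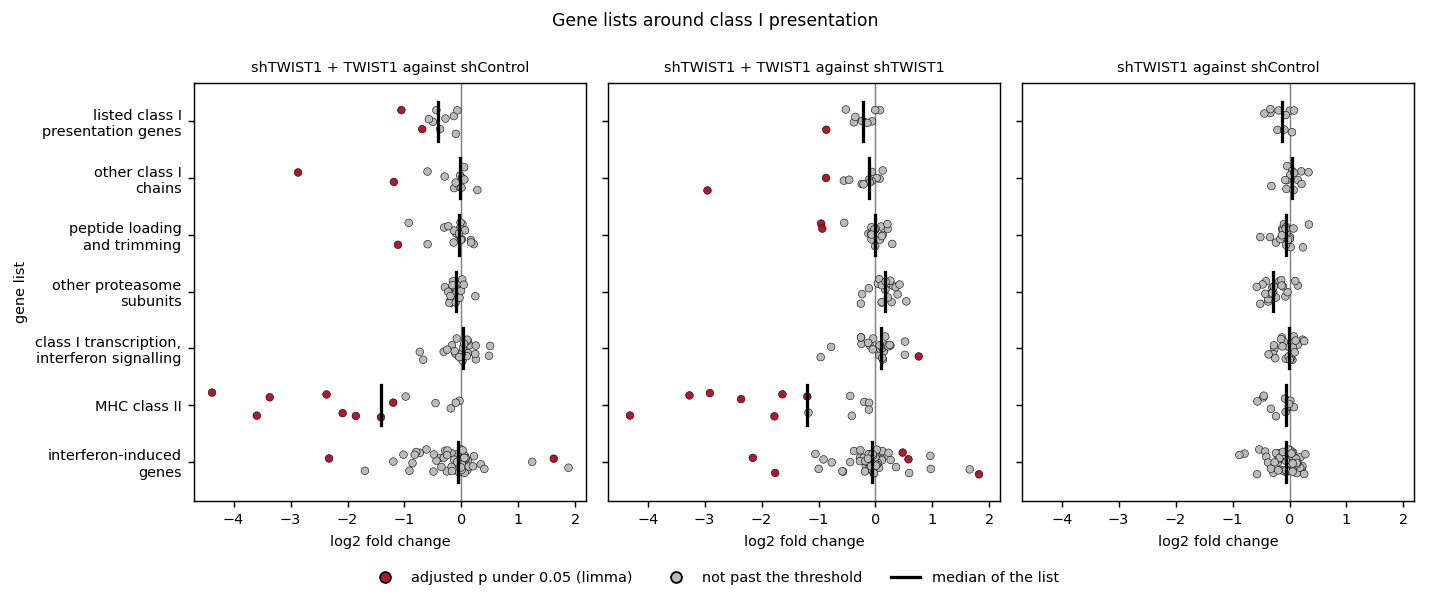
Log2 fold changes of the 10 class I presentation genes and of 6 lists around them in the 3 comparisons, 1 point per gene, with the list's median as a bar. Red points passed an adjusted p of 0.05 and grey points did not. MHC class II has medians of -1.41 and -1.20 in the first 2 panels, the other proteasome subunits lie at -0.28 in the last, and no gene is called there.

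The mean over 10 leukocyte markers ranged between 3.05 and 3.20 on shTWIST1 + TWIST1 arrays, between 3.18 and 3.33 on shTWIST1 arrays and between 3.10 and 3.14 on shControl arrays. CD68, which tumor cells can also express, was lower in shTWIST1 + TWIST1 than in shTWIST1 cells (-0.79, adjusted p = 0.0351, and 0.0526 with the replicate block). Of fits without 1 array, CD68 was called only without replicate 2 of shTWIST1 + TWIST1 or of shTWIST1 cells. Against shControl, CD68 differed by -0.17 in shTWIST1 + TWIST1 (adjusted p = 0.709) and by 0.62 in shTWIST1 cells (adjusted p = 0.425, limma). Of 7 melanocytic markers, S100B fell by 2.38 against shControl cells and the other 6 were not called, with a median of -0.03 over the 7 and 0.15 as the highest. The part of these in the members' values was not tested.

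The mean of the 10 members, each standardized over the 9 arrays, was highest on shControl replicate 1 (1.39) and lowest on shTWIST1 + TWIST1 replicate 3 (-0.99). The genes whose values followed this mean most closely over the 9 arrays were MAN1B1, SDF4, TSPAN4, SYDE2 and LGALS8, with Pearson r between 0.934 and 0.954. None of them lies on chromosome 6. TSPAN4 differed by -0.82 in shTWIST1 + TWIST1 against shControl cells and MAN1B1, which trims mannose from glycoproteins in the secretory pathway, by -0.55. The most opposite genes were FSTL1 (r = -0.965), PTMAP5, BTRC, DSG1 and SLC27A6. These r were picked from all genes over 9 arrays and carry no test.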

How the data were processed

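The deposited values are log2 expression made by the authors with RMA. The RMA version is not given in the sources used here. RMA corrects background, normalizes between arrays by quantiles and summarizes probes by median polish. Neither the array nor its chip definition is named in the text of the study. Of 20673 probe sets, 738 without a gene symbol were left out, and 1 gene with 2 probe sets kept the brighter, which left 19934 genes. Of these, 19913 matched the RefSeq table by gene ID.

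One linear model over the 9 arrays, with the default prior of limma (3.58.1, under R 4.3.3), gave all comparisons. Benjamini-Hochberg adjustment covered all 19934 genes, and a call is an adjusted p under 0.05. The members and gene lists were chosen with earlier results of these data known. Named genes are the members, TWIST1, up to 6 called genes of each list by the F-test (or the 2 with the lowest p where none was called), and the 5 genes most like and most unlike the mean of the members. Other genes in the text were chosen after their values were seen. The probe signal limits the precision of dim genes, and the number of arrays that of all. The labels give replicate numbers 1 to 3 in each group. Deviations from the group means correlated between arrays of the same number at 0.322, 0.508 and 0.288 for shTWIST1 with shControl. For shTWIST1 + TWIST1 with shTWIST1 the values were 0.142, 0.296 and 0.304. Same-numbered arrays were taken as paired in these cases, where every value was above 0.1. For shTWIST1 + TWIST1 with shControl the values were 0.0321, 0.216 and 0.107, and they were not taken as paired. The main fit held no replicate term, so p-values given without the replicate block are unpaired in every comparison. The replicate block, run only as an alternative, added the replicate number for all groups at once. It thus also covered shTWIST1 + TWIST1 against shControl. The limma fit was also run on simulated data with independent noise for each gene and array. Those data lacked the correlation between same-numbered arrays, so they cannot check the tests for its effect. The alternatives were quantile normalization, median centring, leaving out genes under the 30th percentile, a trended and robust prior, array weights, every probe set, the replicate block, only the 6 arrays compared, the methods' t-test, and leaving out each array. Plots were drawn in Python with matplotlib 3.10.9.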

Additional observations from a re-analysis of the deposited data

How the results depend on the processing

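The 2 members called in shTWIST1 + TWIST1 against shControl cells became 1 with array weights, 0 with only the 6 arrays compared, 0 by the methods' t-test after Benjamini-Hochberg adjustment, and 0 to 3 without 1 array. The 1 member called against shTWIST1 cells became 2 with the replicate block, 0 by the adjusted t-test, 2 by the unadjusted one, and 0 to 1 without 1 array. The F-test called 2 members with the replicate block and 0 to 2 without 1 array. No member was called in shTWIST1 against shControl cells in any of these limma fits. The 6 lists around the members held 13 called genes against shControl, which became 23 with the replicate block, 0 by the adjusted t-test, 23 by the unadjusted one and 12 to 15 without 1 array. They held 17 against shTWIST1 cells, which became 0 and 29 by these t-tests and 11 to 16 without 1 array. In shTWIST1 against shControl cells they held 0, which became 13 by the unadjusted t-test and 0 to 1 without 1 array. The t-test estimates a spread from 3 arrays a group and borrows none across genes.

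The replicate block left HLA-F (adjusted p = 0.0343) and PSMB9 (0.0264) called against shControl and added PSMB8 (0.036). Against shTWIST1 cells the replicate block added PSMB10, and TRIM21 and CD68 lost their calls there.

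Signs turned for some uncalled differences. With quantile normalization NLRC5 in shTWIST1 against shControl was -0.000395, and with median centring HLA-E was -0.00646 there. With array weights B2M was 0.0342 and TAP1 -0.0274 in shTWIST1 + TWIST1 against shTWIST1. Without 1 array, the differences of shTWIST1 from shControl ran from -0.141 to 0.158 for HLA-E, from -0.0175 to 0.0742 for NLRC5, from -0.0125 to 0.234 for PSMB10 and from -0.128 to 0.0136 for TAP2. Those of shTWIST1 + TWIST1 from shControl ran from -0.314 to 0.0521 for TAP1 and from -0.138 to 0.00887 for TAP2. Those of shTWIST1 + TWIST1 from shTWIST1 ran from -0.133 to 0.0383 for B2M, from -0.102 to 0.174 for TAP1 and from -0.0719 to 0.0706 for TAP2. HLA-F was called against shControl in 7 of 18 alternatives, with adjusted p from 0.0108 to 0.635. PSMB9 was called in 14 of 18 (0.0133 to 0.544), and against shTWIST1 cells in 10 of 18 (0.0203 to 0.364). The causes of these changes were not tested.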
